A study of Mus musculus with 12 samples.

Results

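The genes described are the MAP kinase phosphatases Dusp1, Dusp2, Dusp4, Dusp5, Dusp6 and Dusp10 and the cytokine mRNA decay factors Zfp36, Zfp36l1, Zfp36l2 and Zc3h12a in lung group 2 innate lymphoid cells (ILC2s). They were chosen by name as regulators of MAP kinase signalling and of cytokine mRNA stability, with earlier results of these data known. They make up 10 of the 24346 gene symbols in the tables. Each was followed in every library beside Csf2 and Il5, cytokine genes named for a lower mean level after IL-33.

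Dual-specificity phosphatases of the DUSP family remove phosphate from activated MAP kinases and thereby end ERK, p38 and JNK signals, and several of their genes are themselves induced by these kinases. TTP (the product of Zfp36) and its relatives bind AU-rich elements in the 3′ untranslated regions (3′ UTRs) of cytokine mRNAs and recruit the CCR4-NOT deadenylase, and p38 signalling restrains TTP. Regnase-1, the product of Zc3h12a, is an endonuclease that cleaves stem-loops in the 3′ UTRs of inflammatory transcripts.

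ILC2s were sorted from the lungs of C57BL/6 mice that were wild type (WT) or carried a germline loss of the semaphorin gene Sema6d (Sema6d−/−), after intranasal PBS or IL-33 for 3 days. The 4 groups were WT with PBS, Sema6d−/− with PBS, WT with IL-33 and Sema6d−/− with IL-33, with 3 libraries each and 12 in all. The labels give C57BL/6 and 50 ng of IL-33, whereas the study's methods give C57BL/6J and a higher dose. The loss of Sema6d was not confined to ILC2s, so the genotype comparisons concern cells taken from a mouse that lacks the gene in other tissues as well. The labels do not say that the libraries of a group came from separate mice, so p-values measure only the spread between these samples.

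Sema6d mRNA was listed above 0 in every library, in FPKM (fragments scaled to transcript length and library size). It was 27.5, 46.1 and 37.5 FPKM in WT with PBS and 29.01, 22.9 and 19.8 FPKM in the libraries labelled Sema6d−/− with PBS, which overlap. With IL-33 it was 19.7, 35.5 and 28.7 FPKM in WT and 15.4, 13.6 and 13.8 FPKM in those labelled Sema6d−/−, which do not overlap (two-sided exact permutation p = 0.1, the smallest that 3 against 3 libraries allow). Of the 11395 genes averaging 0.5 FPKM or more, 7.35% were likewise lower without overlap in the Sema6d−/− libraries with IL-33. The part of the gene that was removed is not given in the sources used here, so a gene-level value does not settle the genotype, and the directions below are those of the labels.

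The ILC2 markers were present in all libraries: each of the 10 listed genes was at 1 FPKM or more in every one, and their summed level lay between 4987 and 8034 FPKM, with Id2 or Areg as the most abundant gene. Of 6 T cell markers, Cd3g alone made up nearly all of the sum, with 189.7 to 480 FPKM. Markers of eosinophils, neutrophils and mesenchymal cells summed to less than 4 FPKM in every library. Markers of other cell types were high in individual libraries. The 4 NK cell markers summed to 69.8 FPKM in Sema6d−/− PBS replicate 2, led by Ncr1 at 58.9 FPKM, and to 2.64 FPKM or less in the others, where 2 to 4 of the 4 were listed at 0. The 8 macrophage markers summed to 177 FPKM in the same library (Lyz2 at 112 FPKM), and to 423 and 143 FPKM in Sema6d−/− IL-33 replicates 2 and 3, led by Chil3 at 394 and 83.1 FPKM, against 16.6 FPKM or less elsewhere. Markers of mast cells and basophils summed to 42.9 to 89.3 FPKM with PBS and to 17.8 to 41.9 FPKM with IL-33, without overlap. Cpa3 led in every library, and 3 or 4 of the 5 were at 0. The 3 erythroid markers summed to 2.71 to 45.1 FPKM with PBS and 0.271 to 4.75 FPKM with IL-33, led by Hba-a1, with 1 or 2 of the 3 at 0. The 4 B cell markers summed to 0 to 8.90 FPKM with PBS and 3.49 to 26.9 FPKM with IL-33, where Cd79b led. The treatments overlapped in both of these sums. The 4 epithelial markers summed to 23.1 to 54.0 FPKM with PBS and 4.26 to 101 FPKM with IL-33, where Sftpc alone reached 97.2 FPKM in Sema6d−/− IL-33 replicate 3 and the next highest sum was 23.8 FPKM. Sums overlapped for dendritic (0.252 to 20.5 FPKM) and endothelial markers (1.32 to 20.7 FPKM). Single markers moved with treatment in the averaged comparison (limma, adjusted p under 0.05). Epcam fell (log2 change -2.95 ± 0.51, adjusted p = 0.00369, and 0.0602 with array weights), as did Cpa3 (-1.35 ± 0.26, adjusted p = 0.00737) and Hba-a1 (-2.55 ± 0.64, adjusted p = 0.0281, above 0.05 with array weights and when any of 4 of the 12 libraries was left out). Cd79b rose (2.94 ± 0.62, adjusted p = 0.0124, and 5.39 with a pseudocount of 0.1). The other markers tested in these lists were not called, namely Cdh1 (1.68 ± 0.55, adjusted p = 0.0833), Sftpc (2.18 ± 0.98) and Scgb1a1 (0.099 ± 0.89) beside Epcam, and Cd79a (-0.18 ± 0.44) beside Cd79b. Of the 10 ILC2 markers, 3 fell (30%, against 3.07% of all genes) and 1 rose (10%, against 5.75%). Il2ra changed by -1.86 and Klrg1 by 0.93 (adjusted p of 5.96e-05 and 0.0117). The others that fell, Icos and Areg, were not called when any of 10 and of 2 of the libraries was left out. The part of these transcripts in the results was not tested.

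The PBS libraries were more variable than the IL-33 libraries. The number of genes above 1 FPKM was 7696 to 9287 with PBS and 9917 to 10081 with IL-33. Correlations between libraries of a group on log2(FPKM + 1) ran from 0.761 to 0.818 with PBS and from 0.934 to 0.950 with IL-33. Read totals are not part of the FPKM values. The steps between low values, of which 70.7% were whole multiples within a tolerance of 0.05, gave approximate depths of 1 to 1.35 for the PBS libraries and 1.31 to 1.88 for the IL-33 libraries, relative to WT PBS replicate 1.

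At baseline the members differed widely in level. In WT with PBS, Dusp1 was the most abundant at 3358 ± 620 FPKM (mean ± SD, n = 3), followed by Zfp36 at 1814 ± 250 and Zfp36l1 at 421 ± 54.5. Dusp5 (236 ± 66.5) and Zfp36l2 (217 ± 20.9) came next and did not differ beyond their spread. Dusp6 stood at 159 ± 17.1 and Dusp10 at 66.7 ± 19.3. Dusp2 (15.2 ± 13.1), Zc3h12a (13.02 ± 6.21) and Dusp4 (7.43 ± 5.38) were the lowest, and their libraries overlapped.

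After IL-33, transcripts of 6 of the 10 members fell and that of 1 rose when both genotypes were averaged (limma, adjusted p under 0.05). Of all 11395 genes tested, 3.07% were called lower and 5.75% higher in that comparison. The median log2 change of the 10 members was -0.72, against 0.16 over all genes. That shift of all genes was -0.027 after quantile normalization, and values relative to it are given below. In WT, 6 members were called lower (1.61% of all genes), and in Sema6d−/−, 2 (1.1% of all genes). These counts were 3 in WT without WT IL-33 replicate 1 and 1 in Sema6d−/− without Sema6d−/− PBS replicate 1 or 3 or any of the Sema6d−/− IL-33 libraries. They were 2 and 1 without the intensity trend of the fit, and that in Sema6d−/− was 1 with array weights or with only these groups in the fit. In bulk RNA, fewer cells of a type and less RNA per cell cannot be told apart.

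**Figure D1:**
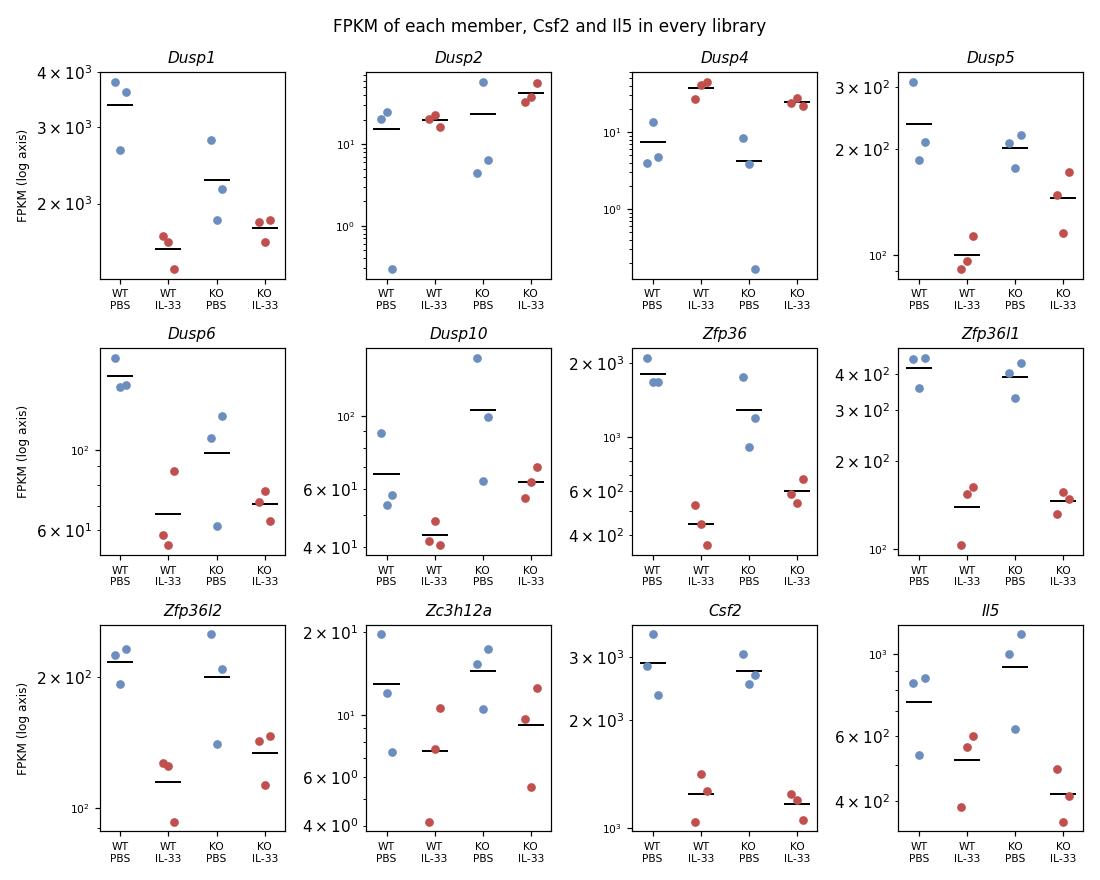
FPKM of the 10 members, Csf2 and Il5 in each of the 12 libraries (points, logarithmic vertical axis), with the mean of each group as a line. For Zfp36, Zfp36l1, Dusp5 and Csf2 every IL-33 library lies below every PBS library, and for Dusp4 every IL-33 library lies above.

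Among the inducible nuclear phosphatases, Dusp1, which acts mainly on p38 and JNK, was at 3810, 2651 and 3614 FPKM in WT with PBS and at 1682, 1631 and 1414 FPKM after IL-33. The Sema6d−/− libraries held 2799.6, 1833 and 2159.9 FPKM with PBS and 1809, 1631 and 1836 FPKM after IL-33. The WT groups did not overlap, whereas the highest IL-33 library of Sema6d−/− reached above the lowest PBS library. The log2 change was -1.08 ± 0.17 (SE) in WT with an adjusted p of 0.00361 (0.0609 without the intensity trend), and -0.34 ± 0.17 in Sema6d−/− with an adjusted p of 0.36. The latter was -0.18 without Sema6d−/− PBS replicate 1 and -0.21 after quantile normalization. Averaged over genotypes it was -0.71 ± 0.12, or -0.87 relative to the median of all genes, with an adjusted p of 0.00267 (two-sided exact permutation p = 0.01 over 400 assignments of treatment within genotype).

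Dusp5, a nuclear phosphatase that acts on ERK, was at 311, 186 and 209 FPKM in WT with PBS and at 91.3, 96.0 and 113 FPKM after IL-33. Levels in Sema6d−/− were 209, 176 and 219.5 FPKM with PBS and 148, 116 and 173 FPKM after IL-33. No IL-33 library reached a PBS library in either genotype, although the Sema6d−/− groups came close. The averaged log2 change was -0.84 ± 0.16 with an adjusted p of 0.00602 (exact permutation p = 0.005, the smallest these assignments allow).

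Dusp4, a nuclear phosphatase of ERK and JNK, moved the other way. It was at 3.95, 13.6 and 4.72 FPKM in WT with PBS and at 27.3, 41.0 and 45.4 FPKM after IL-33, and in Sema6d−/− at 8.44, 3.91 and 0.165 FPKM with PBS and 24.2, 27.6 and 21.8 FPKM after IL-33. All 6 IL-33 libraries exceeded all 6 PBS libraries, as they did for 4.12% of all genes. Averaged over genotypes, the log2 change was 2.55 ± 0.48 (2.39 relative to the median of all genes), with an adjusted p of 0.00616. Within a genotype its adjusted p was 0.0806 in WT and 0.0551 in Sema6d−/−. With array weights these were 0.0315 and 0.0152, and without Sema6d−/− PBS replicate 1 they were 0.0359 and 0.0205. In WT it was 0.0169 without Sema6d−/− PBS replicate 3, and in Sema6d−/− it was 0.0416 without WT PBS replicate 2 and 0.042 after quantile normalization.

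Dusp2, another inducible nuclear phosphatase, was scattered under PBS. The WT values were 20.4, 24.8 and 0.293 FPKM and the Sema6d−/− values 4.43, 58.5 and 6.42 FPKM, the highest being the library with NK cell and macrophage markers. IL-33 libraries held 20.2, 22.5 and 16.3 FPKM (WT) and 33.2, 38.1 and 55.4 FPKM (Sema6d−/−). The averaged log2 change of 1.43 ± 0.76 had an adjusted p of 0.297, and became 0.73 without WT PBS replicate 3, where the WT value of 1.20 became -0.20.

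Dusp6, the cytoplasmic phosphatase selective for ERK, was at 179, 149 and 150.4 FPKM in WT with PBS and at 58.3, 54.5 and 87.4 FPKM after IL-33. Sema6d−/− cells had 108, 61.6 and 124 FPKM with PBS and 71.9, 76.9 and 63.7 FPKM after IL-33. The WT groups stood apart and the Sema6d−/− groups overlapped through the low PBS replicate 2. Over both genotypes the change was -0.84 ± 0.19 with an adjusted p of 0.0191. It was 0.0531 without WT IL-33 replicate 1, 0.055 without WT IL-33 replicate 2, 0.0535 without Sema6d−/− IL-33 replicate 3, and 0.0523 in a fit without the intensity trend.

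Dusp10, which acts on p38 and JNK, was at 88.9, 53.7 and 57.4 FPKM in WT with PBS and at 41.8, 48.2 and 40.5 FPKM after IL-33. For Sema6d−/− the values were 150.2, 63.6 and 99.1 FPKM with PBS and 56.5, 63.1 and 70.1 FPKM after IL-33. The WT groups did not overlap and the Sema6d−/− groups did. The averaged log2 change of -0.60 ± 0.22 had an adjusted p of 0.114, and 0.0278 without Sema6d−/− PBS replicate 2.

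Among the decay factors, Zfp36 (TTP) had the largest averaged decrease, close to that of Zfp36l1, whose decrease was the larger in Sema6d−/−. Zfp36 was at 2103, 1670.1 and 1669.5 FPKM in WT with PBS and at 529, 442 and 361 FPKM after IL-33, a mean 4.08 times higher with PBS. The values in Sema6d−/− were 1754, 907 and 1198 FPKM with PBS and 584, 539.8 and 677 FPKM after IL-33, a mean 2.14 times higher with PBS. IL-33 libraries did not reach PBS libraries in either genotype. The averaged log2 change was -1.54 ± 0.16 (-1.70 relative to the median of all genes) with an adjusted p of 9.46e-05, and the exact permutation p was 0.005. In Sema6d−/− alone the adjusted p was 0.0269. It was 0.0525 with array weights, 0.0929 with only these groups in the fit and 0.125 without the intensity trend, and lay between 0.0536 and 0.115 without Sema6d−/− PBS replicate 1 or 3 or any of the Sema6d−/− IL-33 libraries.

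Zfp36l1, a TTP relative that also binds AU-rich elements, was at 451, 359 and 455 FPKM in WT with PBS and at 103, 154 and 163 FPKM after IL-33. Libraries of Sema6d−/− gave 405, 332 and 437 FPKM with PBS and 131, 157 and 149 FPKM after IL-33. Its levels were much alike in the genotypes, and every PBS library exceeded every IL-33 library. The log2 change was -1.61 ± 0.20 in WT and -1.41 ± 0.20 in Sema6d−/−, with adjusted p of 0.00104 and 0.00324.

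Zfp36l2, the third of these proteins, was at 225, 193 and 232 FPKM in WT with PBS and at 127, 125 and 92.8 FPKM after IL-33. Those of Sema6d−/− stood at 251, 140.2 and 209 FPKM with PBS and 143, 113 and 146 FPKM after IL-33. The Sema6d−/− groups overlapped through PBS replicate 2. Averaged, the log2 change was -0.73 ± 0.16 with an adjusted p of 0.0151, and 0.0602 in a fit without the intensity trend. In WT alone the adjusted p of 0.0446 rose above 0.05 when any of 10 of the 12 libraries was left out, and was 0.056 with no filter on low values, 0.136 without the trend, 0.0724 with array weights, 0.0518 with a replicate block and 0.0516 with only the groups compared.

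Zc3h12a (Regnase-1) was a low transcript in every group. It was at 19.7, 12.02 and 7.38 FPKM in WT with PBS and at 4.13, 7.57 and 10.6 FPKM after IL-33, and in Sema6d−/− at 15.4, 10.6 and 17.3 FPKM with PBS and 9.72, 5.49 and 12.6 FPKM after IL-33. The groups overlapped in both genotypes, and the averaged log2 change of -0.67 ± 0.35 had an adjusted p of 0.28.

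Csf2 and Il5 were named for their decline in these data, so their change after IL-33 is given as a description, with no test. Csf2, which encodes GM-CSF, was at 2819, 3466 and 2341 FPKM in WT with PBS and at 1041, 1416 and 1267 FPKM after IL-33. The Sema6d−/− values were 3044, 2514 and 2675 FPKM with PBS and 1248, 1196 and 1051 FPKM after IL-33. The log2 change was -1.20 ± 0.16 in WT and -1.23 ± 0.16 in Sema6d−/−, and -1.22 ± 0.11 averaged. Its genotypes overlapped under both treatments.

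Il5, the eosinophil growth factor gene, was at 832, 531 and 859 FPKM in WT with PBS and at 384, 561 and 601 FPKM after IL-33. In the knockout libraries it was 999.7, 627 and 1129 FPKM with PBS and 488, 351 and 412 FPKM after IL-33. The WT groups overlapped and the Sema6d−/− groups did not. The averaged log2 change was -0.81 ± 0.18. Its interaction of genotype and treatment was -0.59 ± 0.37, with an adjusted p of 0.897 (-0.37 without WT PBS replicate 2).

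**Figure D2:**
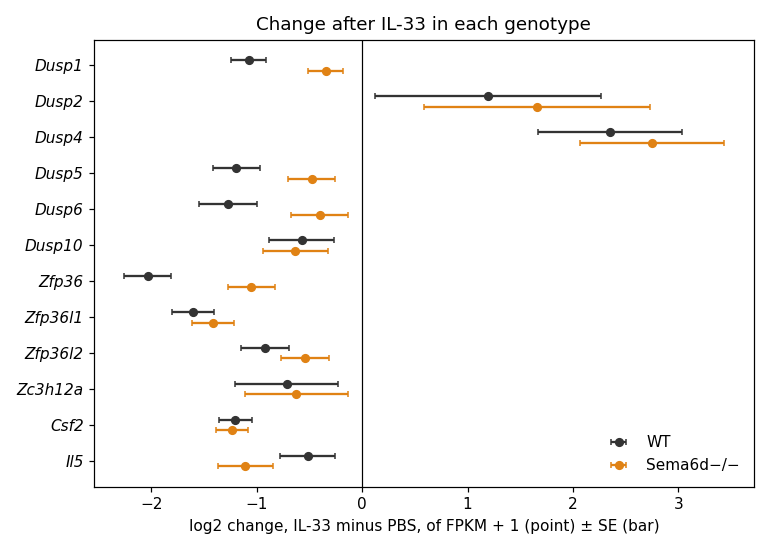
Log2 change after IL-33 of FPKM + 1 for the 10 members, Csf2 and Il5 (points) with standard errors from limma (bars), in WT and in Sema6d−/−. For Dusp1, Dusp5, Dusp6 and Zfp36 the WT point lies further below 0 than the Sema6d−/− point, while Zfp36l1 and Csf2 lie close together.

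Groups did not overlap, IL-33 below PBS, for 7 of the 10 members in WT (9.23% of all genes), for 3 in Sema6d−/− (8.75%) and for 3 with all 6 IL-33 libraries set against all 6 PBS libraries (2.33%). The WT and Sema6d−/− comparisons each have their own PBS libraries.

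Between genotypes, no member was called by limma under PBS, under IL-33 or in the interaction. Of all genes 0.579%, 0.00878% and 0.0176% were called in these comparisons. At an unadjusted p under 0.05 there were 3, 1 and 4 of the 10 members, and 12.9%, 1.83% and 5.57% of all genes. The fit gave each gene a common spread for all groups. The median SD over genes on log2(FPKM + 1) was 0.657 (WT) and 0.705 (Sema6d−/−) with PBS, and 0.292 and 0.282 with IL-33. The shares under PBS and under IL-33 therefore cannot be read as a difference between treatments. Under PBS, Dusp6 was lower in all 3 libraries labelled Sema6d−/− than in any WT library, as were 4.20% of all genes, with a log2 difference of -0.76 ± 0.27 and an adjusted p of 0.287 (-0.46 without Sema6d−/− PBS replicate 2). Under IL-33, Dusp2, Dusp5, Dusp10 and Zfp36 were higher in all 3 libraries labelled Sema6d−/−, as were 6.88% of all genes. Each had an adjusted p of 1 in the main limma fit. The lowest in other limma fits were 0.232, 0.210, 0.273 and 0.228, in that order. The interaction of Zfp36 was 0.99 ± 0.31 and that of Dusp1 0.73 ± 0.23, with adjusted p of 0.766 and 0.774. Over 400 reassignments of genotype within treatment, the exact permutation p of the interaction, unadjusted, was 0.025 for each of these genes, 0.045 for Dusp5, 0.05 for Dusp6 and 0.26 or more for the other members. These reassignments take as their null that genotype has no effect under either treatment.

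Within a treatment, the 6 PBS and the 6 IL-33 libraries were used to relate each member to Csf2 and Il5 over both genotypes. None of the 40 relations had an exact permutation p under 0.05. The smallest was that of Dusp10 with Il5 under PBS (Pearson r = 0.741, exact p = 0.103, adjusted p = 0.793; Spearman rho = 0.771, exact p = 0.103, adjusted p = 0.749), and r was 0.652 without the 2 libraries farthest from the median of Dusp10.

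The patterns most like those of members over the 12 libraries were sought among the 7412 genes averaging 5 FPKM or more. Nearest to Dusp1 were Fos, Nsmf and Nfkbia (r = 0.957, 0.941 and 0.940). Nearest to Zfp36 were Cebpb, Tnfaip3 and Ythdc1 (r = 0.981, 0.973 and 0.969). Nearest to Zc3h12a were Map3k1, Gpr132 and Nmt2 (r = 0.916, 0.904 and 0.889). These libraries share the difference between treatments.

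Genes induced immediately by stimulation or by tissue dissociation moved with the members. Of the 21 listed, 13 fell (61.9%, against 3.07% of all genes) and 0 rose in the averaged comparison, with a median log2 change of -0.73. Their summed level was 12151 to 17654 FPKM with PBS and 7195 to 8732 FPKM with IL-33. Egr3 changed by -3.02 ± 0.36, Atf3 by -1.95 ± 0.18 and Egr1 by -1.48 ± 0.15, with adjusted p of 0.00034, 5.5e-05 and 0.000115. Dusp1 and Zfp36 are themselves immediate early genes, and the part of cell handling in their change was not tested. Between genotypes, the summed level with PBS was 15898 to 17654 FPKM in WT and 12151 to 15357 FPKM in Sema6d−/−, without overlap. With IL-33 the genotypes overlapped. In this list, Fos led in each WT library with PBS. Its mean with PBS was 3790 FPKM in WT and 2266 FPKM in Sema6d−/−. Of the 21, 1 was called lower and 0 higher under PBS (0.246% and 0.333% of all genes). A log2 difference below 0 was found for 14, with a median of -0.11. Egr1 was at 0.61 ± 0.22 and not called. Under PBS, Jun was lower in Sema6d−/− by limma (-0.94 ± 0.18, adjusted p = 0.0363), a call lost when any of 10 of the 12 libraries was left out and in 6 of 9 other fits. Fos was at -0.74 ± 0.15 with an adjusted p of 0.052, and was called when any of 3 libraries was left out and in 2 of 9 other fits. The part of this signal in the genotype differences and interactions of Dusp1, Dusp6 and Zfp36 was not tested.

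Of the 6 Sprouty and SPRED genes, which encode other inhibitors of ERK signalling, 4 were tested and 2 called lower (50%, against 3.07% of all genes). Spry1 averaged 232 FPKM in WT with PBS and 52.9 FPKM with IL-33 (averaged log2 change -1.98 ± 0.20, adjusted p = 0.000106), and Spry2 151.7 and 48.1 FPKM (-1.58 ± 0.17, adjusted p = 0.000128). The low transcripts Spred1 (0.80 ± 0.40, adjusted p = 0.271) and Spred2 (0.67 ± 0.29, adjusted p = 0.189) were not called. Of the 23 MAP kinases, their upstream kinases and the kinases they activate that were tested, 1 rose and 1 fell, 4.35% each way, near the 5.75% and 3.07% of all genes. Mapkapk3, a kinase downstream of p38, rose (0.94 ± 0.17, adjusted p = 0.0058) and Mapk11, p38β, fell (-1.76 ± 0.40, adjusted p = 0.0181, and 0.108 with array weights). Limma called 0 of the 3 other MAP kinase phosphatases tested (0 at an unadjusted p under 0.05, which 22.7% of all genes had in the averaged comparison), of which Dusp16 (0.41 ± 0.69, and -0.24 after quantile normalization) and Dusp8 (-0.50 ± 0.43) were the most abundant. It called 0 of the 8 atypical phosphatases tested (2 at an unadjusted p under 0.05, near that share), where Dusp14 was at 2.40 ± 0.74 with an adjusted p of 0.0674 (0.00129 without Sema6d−/− PBS replicate 3) and Dusp11 at -0.14 ± 0.22.

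Among partners of the decay factors, 4 of the 18 genes of the CCR4-NOT, BTG/TOB and PAN deadenylases fell and 0 rose. The 4 are 22.2%, against 3.07% of all genes called lower and 5.75% called higher. At an unadjusted p under 0.05 there were 6, against 22.7% of all genes. Cnot8 was not called averaged (1.01 ± 0.34, adjusted p = 0.0926). In WT it was called higher (1.90 ± 0.48, adjusted p = 0.0486). Btg2 is counted here and among the immediate early genes. Tob2, an adaptor of the deadenylase, changed by -1.10 ± 0.14 (adjusted p = 0.000565), the catalytic subunit Cnot6l by -1.18 ± 0.33 (adjusted p = 0.0462) and Cnot10 by -0.79 ± 0.22 (adjusted p = 0.0451). The adjusted p passed 0.05 for Cnot6l when any of 9 of the 12 libraries was left out and for Cnot10 when any of 10 was, with values up to 0.118 and 0.117, and in 3 and 2 of 8 other fits. Limma called 0 of the 10 other AU-rich element and stem-loop factors tested (1 at an unadjusted p under 0.05, against 22.7% of all genes), of which Arid5a (-0.36 ± 0.23) and Elavl1 (-0.10 ± 0.18) were the most abundant. It called 0 of 9 decapping and 5′ to 3′ decay genes (1 at an unadjusted p under 0.05, against the same 22.7%), of which Lsm1 (1.12 ± 0.41, with an adjusted p of 0.121, and 0.016 without WT PBS replicate 3) and Ddx6 (0.013 ± 0.30) were the most abundant.

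Of 18 other transcripts known as targets of these decay factors, 8 fell (44.4%) and 3 rose (16.7%), with a median of -0.76. Of all genes, 3.07% were called lower and 5.75% higher. The 8 include Il2ra and Icos, counted above among the ILC2 markers. The 3 include Il13 at an adjusted p of 0.0499, which lost its call when any of 9 of the 12 libraries was left out and in 4 of 8 other fits. Il3, a cytokine gene near Csf2, averaged 18.0 FPKM in WT with PBS and 1.20 FPKM with IL-33 (averaged log2 change -2.94 ± 0.74, adjusted p = 0.03). Its adjusted p was above 0.05, and up to 0.081, when any of 6 of the 12 libraries was left out, and up to 0.0966 in 3 of 8 other fits. Tnfrsf4, which encodes OX40, rose by 4.82 ± 0.69 (adjusted p = 0.0011) and Il6 by 3.90 ± 0.89 (adjusted p = 0.0174, and 0.066 with a pseudocount of 0.1).

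The mRNAs that carry the element read by the TTP family were examined in the longest 3′ UTR of each gene in GENCODE vM21. The letters TATTTAT, the core of the element, were counted on the sense strand, overlapping matches included. Csf2 held 9 in 317 bases, as many as or more than which were found in 0.0524% of 1909 3′ UTRs of like length (0.8 to 1.25 times). Il5 held 3 in 1092 bases, which 2.25% of like 3′ UTRs matched. Zfp36, Zfp36l1, Zfp36l2 and Dusp1 held 3 each, which 1.23%, 4.3%, 4.27% and 1.33% of like 3′ UTRs matched, Dusp2 held 1 (15.6%), and Dusp4, Dusp5, Dusp6, Dusp10 and Zc3h12a held 0. Of genes with 2 or more, 4.39% fell and 4.04% rose in the averaged comparison, against 2.85% and 6.46% of genes with 0, and the median 3′ UTR was 2799 and 846.5 bases long.

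The stretch of 30 bases with the most TATTTAT, and among equals the most ATTTA, is shown for the cytokines and for Zfp36, each in the 3′ UTR, in GRCm38 and on the transcript's strand, with ATTTA in capitals. The Csf2 stretch lies at chr11:54247328-54247357 (minus strand), that of Il5 at chr11:53724106-53724135 (plus strand) and that of Zfp36 at chr7:28376962-28376991 (minus strand). They hold 5, 1 and 2 TATTTAT.
Csf2: ttttaaatATTTATTTATTTATTTATTTAt
Il5: ataccatatgctgtttccATTTAtATTTAt
Zfp36: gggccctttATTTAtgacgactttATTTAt

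Promoters from RefSeq (GRCm38.p6, 250 bases before to 50 after the start) were matched for 8 of the 10 members and searched on both strands for the cyclic AMP response element TGACGTCA, its half-site TGACG (contained in the former), the AP-1 site TGANTCA, and the CArG box and NF-kB site by their consensus. TGACGTCA was present in 1 of the 8 and in 1.79% of all 32851 promoters, the half-site in 4 and in 20.8%, TGANTCA in 1 and in 7.81%, the CArG box in 2 and in 1.63%, and the NF-kB site in 0 and in 8.46%. The promoters of members that fell and held a full-length TGACGTCA or CArG box are shown, with matches in capitals. They lie at chr17:26508423-26508722 (minus strand) for Dusp1, chr19:53528895-53529194 (plus strand) for Dusp5 and chr7:28379179-28379478 (minus strand) for Zfp36. A match describes the letters only.
Dusp1: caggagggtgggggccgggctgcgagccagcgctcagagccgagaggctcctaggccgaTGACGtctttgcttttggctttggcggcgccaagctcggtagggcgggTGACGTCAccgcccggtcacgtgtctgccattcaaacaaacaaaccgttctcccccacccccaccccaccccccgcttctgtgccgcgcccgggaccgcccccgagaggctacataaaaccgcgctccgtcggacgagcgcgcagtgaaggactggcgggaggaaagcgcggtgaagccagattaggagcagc
Dusp5: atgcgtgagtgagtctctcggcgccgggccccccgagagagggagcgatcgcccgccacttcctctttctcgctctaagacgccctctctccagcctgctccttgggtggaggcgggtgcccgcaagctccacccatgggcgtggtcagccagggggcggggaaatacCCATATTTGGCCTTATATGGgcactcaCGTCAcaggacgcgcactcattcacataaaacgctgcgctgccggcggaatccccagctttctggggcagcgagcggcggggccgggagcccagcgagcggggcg
Zfp36: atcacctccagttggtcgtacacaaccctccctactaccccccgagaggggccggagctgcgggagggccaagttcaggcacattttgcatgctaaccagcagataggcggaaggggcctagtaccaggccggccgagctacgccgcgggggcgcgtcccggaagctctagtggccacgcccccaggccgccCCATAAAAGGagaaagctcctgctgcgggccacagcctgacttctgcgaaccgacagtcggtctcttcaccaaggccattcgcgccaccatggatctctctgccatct

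In the annotation Dusp1 lies on chromosome 17 at 26505590 to 26562128 on the minus strand, where its exons overlap those of Ergic1 on the other strand. Ergic1 was at 18.95 to 40.8 FPKM, against 1414 FPKM or more for Dusp1. Exons of Dusp5, Zfp36, Zfp36l1, Zfp36l2, Csf2 and Il5 overlap annotated genes on the opposite strand that have no row in the tables. Whether fragments were assigned by strand is not given in the sources used here.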

How the data were processed

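RNA of sorted lung ILC2s was converted to full-length cDNA with the SMART-Seq HT kit and made into Nextera libraries per the labels, whereas the study's methods name a stranded mRNA kit. The deposited FPKM values were made by the authors. The submitters' processing notes name TopHat2 2.1.1, Bowtie2 and Cuffdiff 2.2.1 with mouse build mm10, and the study's methods name another TopHat version and Cuffnorm. The annotation is not given in the sources used here. log2(FPKM + 1) was fitted with limma 3.58.1 in R 4.3.3 (4 group means, eBayes with trend, all 12 libraries, genes averaging 0.5 FPKM or more), with Benjamini-Hochberg adjustment over the 11395 genes tested and a threshold of 0.05. Fold changes are on that scale, which understates low genes. Exact permutation tests were two-sided. The fit was also run on simulated data, and the outcome is not given here. Members and lists were chosen with earlier results of these data known. Named were the members, Csf2 and Il5, and of each other list up to 3 called genes with the largest averaged change or else the 2 most abundant. Genes described beyond that rule were added after values were seen (single markers, Spred1, Spred2, Cnot8, Il13, and Jun, Fos and Egr1 between genotypes). So were the sequence and correlation comparisons.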

Additional observations from a re-analysis of the deposited data

How the results depend on the processing

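In the averaged comparison of IL-33 with PBS the direction of all 10 members held under every alternative run, including each of 12 omissions of a library. Without the intensity trend, 2 members were called in WT and 1 in Sema6d−/−, and with only the groups compared in the fit 145 genes and 1 member were called in Sema6d−/−. Leaving out a library gave 194 to 693 genes and 3 to 7 members in WT, 115 to 437 genes and 1 to 3 members in Sema6d−/−, and 653 to 1186 genes averaged. Genes called between genotypes under PBS numbered 33 with no filter, 36 after quantile normalization, 1 with array weights, 1 with only those groups and 21 to 203 without a library. Under IL-33 they numbered 2 with a pseudocount of 0.1, 0 after quantile normalization, 55 with array weights, 17 with only those groups and 0 to 3 without a library. For the interaction they numbered 5 with a pseudocount of 0.1, 7 without trend and 0 to 25 without a library. No member was among those called between genotypes or in the interaction in any of these fits. Why the counts differed between fits was not tested.

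With the number as a replicate block, 15 genes were called between genotypes under PBS and 1 in the interaction, 5 members in WT, 2 in Sema6d−/− and 7 averaged. Same-numbered libraries did not deviate together over all genes (correlations of -0.0468 to 0.0252, and -0.0731 to 0.0530 between libraries of different number). These correlations cannot exclude a shared day or sort, which was not tested.

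Some differences changed sign, among them that of Dusp2 after IL-33 in WT (1.20 ± 1.07). Csf2 was 0.032 between genotypes under PBS, 0.043 under IL-33 and 0.011 in the interaction after quantile normalization, and with array weights the interaction was -0.30 for Dusp2 and -0.086 for Zc3h12a. Without a library, Dusp2 ranged from -0.20 to 1.96 after IL-33 in WT. Between genotypes under PBS the ranges were -0.81 to 1.35 (Dusp2), -0.35 to 0.023 (Dusp5), -0.22 to 0.0058 (Zfp36l1), -0.33 to 0.086 (Zfp36l2), -0.12 to 0.54 (Zc3h12a) and -0.19 to 0.091 (Csf2). Under IL-33 they were -0.015 to 0.32 (Dusp6), -0.12 to 0.21 (Zfp36l1), -0.026 to 0.59 (Zc3h12a) and -0.21 to 0.016 (Csf2). For the interaction they were -0.30 to 1.86 (Dusp2), -0.45 to 1.06 (Dusp4), -0.37 to 0.24 (Dusp10), -0.013 to 0.32 (Zfp36l1), -0.24 to 0.41 (Zc3h12a) and -0.17 to 0.11 (Csf2). None of these values was called. Of other named genes in the averaged comparison, Dusp16 was -0.24 after quantile normalization, and Ddx6 was -0.11 with array weights and -0.13 to 0.22 without a library. The fits of these genes were added after the data were seen. With 3 libraries a group, standard errors of the averaged change among members were largest for the low transcripts Dusp2, Dusp4 and Zc3h12a.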
